A study of Mus musculus with 2 samples.

Results

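The diversity (D) genes of the mouse IGHD3 and IGHD5 families were described in the heavy chains of B cells from Peyer's patches, which are clusters of lymphoid follicles in the wall of the small bowel. The 6 genes with cells were IGHD3-1, IGHD3-2, IGHD5-5, IGHD5-6, IGHD5-7 and IGHD5-8. A cell belonged to the set when its barcode held exactly 1 productive heavy chain and the deposited table called 1 of these genes for it. This gave 538 of 6241 cells, 321 of 3294 in the Cre+ library and 217 of 2947 in the Cre- library. A D gene of any family was called in 5678 cells, of which 5140 carried one of the other D genes (IGHD1-1, the IGHD2 genes and IGHD4-1) and are the comparison below.

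A heavy chain gene is assembled in each developing B cell by joining 1 D gene to 1 joining (J) gene and then a variable (V) gene to that D-J piece. Bases are trimmed from the ends and untemplated bases are added at both joints, so only a part of the D gene may remain. The joint is the third complementarity-determining region (CDR3), the loop at the centre of the antigen-binding site, and its middle is built largely from the D gene. Because a D gene can be read in any of its reading frames, the same letters can add different residues to the loop, and most mouse D genes are used more in one frame than in the others. In Peyer's patches B cells enter germinal centres, switch from IgM and IgD to IgA or IgG, and mutate their V, D and J letters.

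Mice of the Cre+ library were H2-Ab1 fl/fl; Villin:Cre+, in which Cre is driven by the villin promoter of the intestinal epithelium and the floxed gene encodes the beta chain of MHC class II. Mice of the Cre- library were H2-Ab1 fl/fl; Villin:Cre-. Each library pooled CD45+ cells, enriched with magnetic beads, from 4 adult female mice, and all mice carried the floxed alleles. The series' design text writes Cre- for both groups while the sample labels give Cre+ and Cre-, the labels were followed, and H2-Ab1 was not measured here.

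With 1 pooled library per genotype there was no replicate and no test was made. Intervals are exact Clopper-Pearson 95% intervals of a share, or intervals of a difference combined from them, and hold only the error of counting. They are too narrow wherever a large lineage contributes, since its cells descend from 1 B cell. The Cre+ library held 3748 barcodes and 355258 unique molecular identifiers (UMIs, which count molecules), and the Cre- library 3245 barcodes and 355985 UMIs. The heavy chain of an IGHD3 or IGHD5 cell had a median of 8 UMIs (quartiles 5 to 15) in the Cre+ library and 9 (5 to 15) in the Cre- library, against 8 and 10 in cells with other D genes. The libraries shared 10 barcodes, of which 0 were IGHD3 or IGHD5 cells. The largest Cre- lineage, 417 cells of IGHV4-1 with IGHJ3 and an IGHD4-1 call, 416 of them IgA, lies wholly in the comparison cells. Many values are therefore also given without it. The largest Cre+ lineage, 64 cells of IGHV5-17 with IGHJ4, had no D gene called and enters neither side.

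Per the RefSeq gene table of GRCm38.p6 the 6 genes lie among 20 D segments on chromosome 12. IGHD3-2 is at chr12:113448214-113448229, a D segment of 16 bases that is the second from the J genes, 18381 bases from Ighj1. IGHD3-1 is at chr12:113525313-113525329, a D segment of 17 bases near the far end, in place 19 of 20 and 95480 bases from Ighj1. The IGHD5 genes are listed as D segment pseudogenes: IGHD5-6 at chr12:113449588-113449597 (10 bases), IGHD5-5 at chr12:113454942-113454951 (10 bases), IGHD5-8 at chr12:113459864-113459892 (29 bases) and IGHD5-7 at chr12:113464524-113464552 (29 bases). Among the 8 IGHD5 segments listed there, 4 had 0 cells called, as had 7 of all 20 segments.

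The set was led by IGHD3-2, and what its cells share can be read from their CDR3s. The CDR3s of IGHD3-2 cells were searched, after the first 9 bases and the J end were left out, for the 8-base run held by most cells, and the cells were aligned on it. The stretch of 16 bases with the highest agreement is printed here because the results on IGHD3-2 turn on it, with the 8-base run in capitals.
IGHD3-2 cells, aligned stretch: agacAGCTCAGGctac
Anywhere in the CDR3, the run AGCTCAGG was found in 177 of 284 IGHD3-2 cells, 105 of 165 (63.6%, interval 55.8 to 71.0) in the Cre+ library and 72 of 119 (60.5%, 51.1 to 69.3) in the Cre- library. It was found in 1 of 106 IGHD3-1 cells, in 0 of 148 IGHD5 cells, in 0 of 5140 cells with other D genes and in 0 of 563 cells with no D call. Its reverse complement CCTGAGCT was in 0 of 6241 cells. The caller named the D gene from these same letters, so the run describes the calls and is no independent finding about them. Longer or shorter pieces of the stretch were common too: 226 of 284 held 6 or more consecutive bases of the 16, with a median longest match of 11 bases, against 4 bases in IGHD3-1, IGHD5 and other D cells.

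The match to the stretch ended short of both ends in many cells. Among the cells with the run a median of 13 of the 16 bases was matched in the Cre+ library and 14 in the Cre- library, with all 16 in 13 of 105 Cre+ and 16 of 72 Cre- cells. The first base was matched in 23.8% of cells in Cre+ (16.04 to 33.1) and in 38.9% in Cre- (27.6 to 51.1). The last base was matched more often, in 53.3% in Cre+ (43.3 to 63.1) and 59.7% in Cre- (47.5 to 71.1). At the outermost base the match thus reached the J-side end in more cells than the V-side end, in both libraries. At the next base inwards, positions 2 and 15, the shares were 53.3% and 56.2% in Cre+. In Cre- they were 66.7% and 63.9%, the other way. The match was made to a consensus of these cells, and V, J or added bases that equal it lengthen the match, so it does not measure trimming. The width of 16 bases was set to the length that RefSeq gives for Ighd3-2, so the equal length is by choice. No germline sequence of Ighd3-2 was at hand to set the stretch against.

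**Figure D1:**
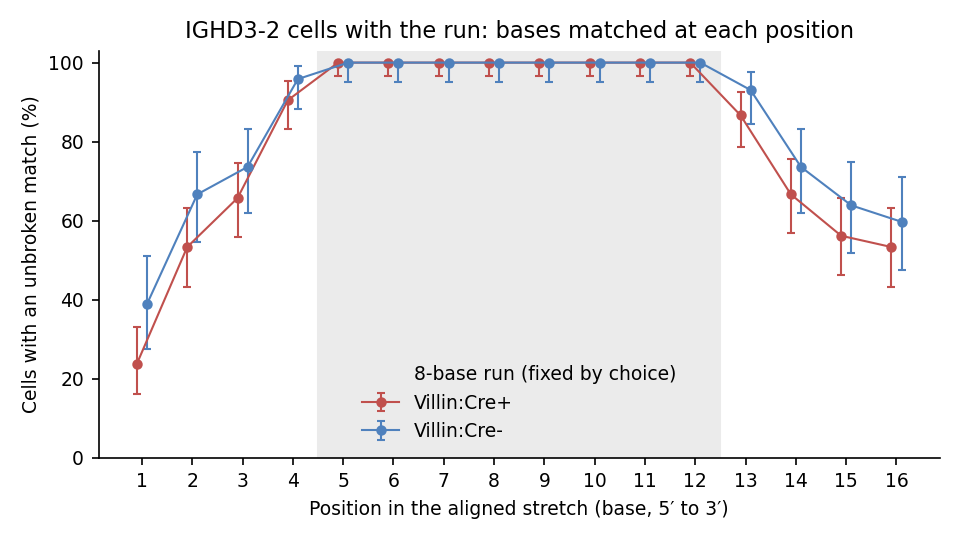
Share of IGHD3-2 cells with the 8-base run (y axis, percent) in which the match to the aligned stretch reaches each of its 16 positions (x axis, from 5′ to 3′), for 105 Cre+ and 72 Cre- cells, with exact 95% intervals. The grey band is the run itself, at 100% by choice. Position 1 is lowest in both libraries (23.8% in Cre+, 38.9% in Cre-), and position 16 stands at 53.3% and 59.7%.

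The run was read in all of its reading frames, and unequally. The frame that gives Ser-Ser-Gly held 51 cells of 105 in Cre+ (48.6%, 38.7 to 58.5) and 46 of 72 in Cre- (63.9%, 51.7 to 74.9). The frame that gives Ala-Gln held 37 in Cre+ (35.2%, 26.2 to 45.2) and 14 in Cre- (19.4%, 11.1 to 30.5). Leu-Arg was read in 17 in Cre+ (16.2%, 9.72 to 24.7) and 12 in Cre- (16.7%, 8.92 to 27.3). Ser-Ser-Gly was thus the most used frame in both libraries, and its interval did not overlap that of Leu-Arg in either. Between the libraries the Ala-Gln share differed by 15.8 percentage points (Cre+ minus Cre-, 1.52 to 28.8) and the Ser-Ser-Gly share by -15.3 (-30.1 to 0.41), with overlapping single intervals and no replicate. Over both libraries the Ser-Ser-Gly frame made up 63.2% of 68 cells joined to IGHJ2, 54.2% of 59 joined to IGHJ3 and 42.9% of 49 joined to IGHJ4, and these intervals overlapped. Cells with the most heavy-chain UMIs in their frame and library, 1 for Ser-Ser-Gly (Cre-) and 1 per library for the other frames, show how the same letters give different residues. Only the bases that match the stretch are in capitals.
Ser-Ser-Gly, Cre-, IGHV5-16 with IGHJ4: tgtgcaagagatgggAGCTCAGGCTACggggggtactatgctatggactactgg
Ala-Gln, Cre+, IGHV1-26 with IGHJ4: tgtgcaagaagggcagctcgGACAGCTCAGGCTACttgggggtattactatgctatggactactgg
Ala-Gln, Cre-, IGHV9-3 with IGHJ2: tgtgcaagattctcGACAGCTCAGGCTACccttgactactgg
Leu-Arg, Cre+, IGHV1-64 with IGHJ3: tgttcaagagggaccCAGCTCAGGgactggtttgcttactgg
Leu-Arg, Cre-, IGHV3-8 with IGHJ2: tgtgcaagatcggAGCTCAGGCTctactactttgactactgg
The Cre- cell of the Ala-Gln frame translates to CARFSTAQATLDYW, and the Leu-Arg cells to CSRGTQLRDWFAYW in the Cre+ and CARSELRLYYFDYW in the Cre- library.

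**Figure D2:**
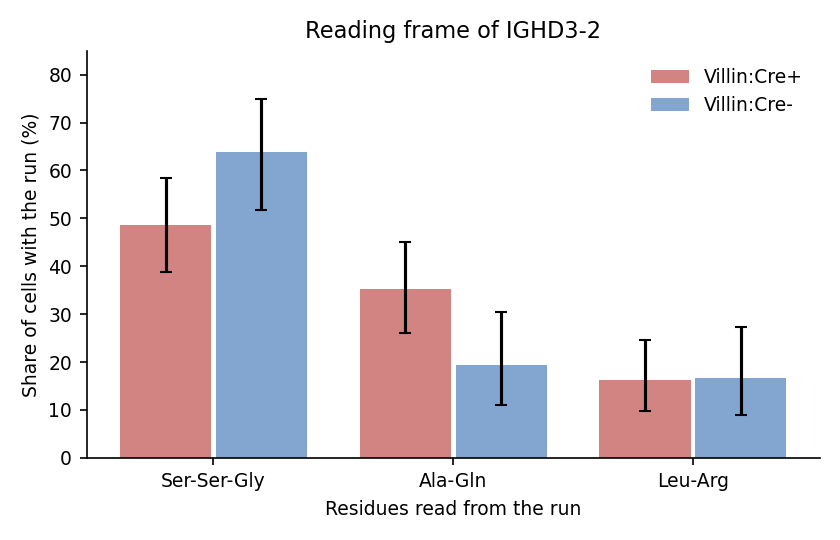
Share of IGHD3-2 cells with the run (y axis, percent) read in each frame (x axis, named by the residues the run gives), for the Cre+ (left bar, 105 cells) and Cre- (right bar, 72 cells) libraries, with exact 95% intervals. Ser-Ser-Gly is the tallest in both libraries (48.6% and 63.9%), and Ala-Gln stands at 35.2% in Cre+ and 19.4% in Cre-.

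IGHD3-2 was rarely joined to IGHJ1, the J gene nearest to the D genes. IGHJ1 was called in 6 of 165 IGHD3-2 cells of the Cre+ library (3.64%, 1.35 to 7.75), against 490 of 2632 cells with other D genes (18.6%, 17.1 to 20.2), a difference of -14.98 percentage points (-17.7 to -10.6). In the Cre- library it was called in 6 of 119 IGHD3-2 cells (5.04%, 1.87 to 10.7), against 415 of 2508 (16.5%, 15.1 to 18.1), a difference of -11.5 (-15.02 to -5.72). Without the largest lineage the Cre- difference was -14.8 (-18.4 to -8.95), and in unswitched cells alone the differences were -16.4 in Cre+ and -14.2 in Cre-. The gap was therefore seen in both libraries and in each of these subsets.

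The gap was wider in the IGHD3-2 cells that held the run. Of these, 0 of 105 in the Cre+ library (exact upper bound 3.45%) and 1 of 72 in the Cre- library (1.39%, 0.0352 to 7.50) were joined to IGHJ1, together 1 of 177 (0.565%, 0.0143 to 3.11). Among IGHD3-2 cells without the run 6 of 60 Cre+ and 5 of 47 Cre- cells were joined to IGHJ1. The other D genes were likewise limited to cells with their own commonest 8-base run. For IGHD1-1 and the IGHD2 genes the IGHJ1 share over both libraries then ranged upwards from 9.94% of 352 cells in IGHD2-4 to 25.1% of 1261 cells in IGHD1-1. IGHD4-1, the D gene closest to the J genes, had 6 of 442 cells over all cells (1.36%, 0.4998 to 2.93), most of them the 417 IGHJ3 cells of the largest lineage. Without that lineage, and with the run chosen anew, IGHD4-1 had 47 of 224 (20.98%, 15.8 to 26.9). Each run was chosen as the commonest in the middle of its gene's CDR3s and then sought in the whole CDR3, as for IGHD3-2. Without the largest lineage the upper bound of IGHD3-2 (3.11%) lay below the lower bounds of these 7 other genes, the smallest of which was 7.02% in IGHD2-4, but over all cells it overlapped the interval of IGHD4-1.

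Heavy chains outside the set gave few IGHD3-2 calls. Nonproductive heavy-chain contigs held 10 IGHD3-2 calls in the Cre+ library and 7 in the Cre- library, of which 0 and 1 had IGHJ1, against 23 of 200 and 18 of 132 contigs with other D genes. With the run, 0 of 8 Cre+ and 0 of 5 Cre- nonproductive IGHD3-2 contigs had IGHJ1. Barcodes with 2 or more productive heavy chains held 13 IGHD3-2 calls in Cre+, 2 with IGHJ1 (1 of these with the run), and 7 in Cre-, 0 with IGHJ1, against 48 of 249 and 21 of 139 contigs with other D genes. At these numbers a share like that of other D genes was not distinguishable from a lower one.

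The other J partners of IGHD3-2 made up the remainder. IGHJ2 was joined in 60 of 165 Cre+ cells (36.4%) and 51 of 119 Cre- cells (42.9%), IGHJ3 in 50 (30.3%) and 35 (29.4%), and IGHJ4 in 49 (29.7%) and 27 (22.7%). Against other D genes in Cre+, IGHJ2 differed by -0.11 percentage points (-7.68 to 7.94), IGHJ3 by 7.92 (0.83 to 15.7) and IGHJ4 by 7.17 (0.12 to 14.9). In Cre- IGHJ2 differed by 13.8 (4.62 to 23.4) over all cells and by 8.04 (-1.23 to 17.7) without the largest lineage. Without that lineage IGHJ3 differed by 8.13 (-0.07 to 17.3) and IGHJ4 by -1.37 (-8.78 to 7.40). IGHD3-1 and the IGHD5 genes did not share the low IGHJ1 share: it was 13 of 68 (19.1%) and 5 of 38 (13.2%) for IGHD3-1, and 14 of 88 (15.9%) and 14 of 60 (23.3%) for IGHD5, in Cre+ and Cre-.

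**Figure D3:**
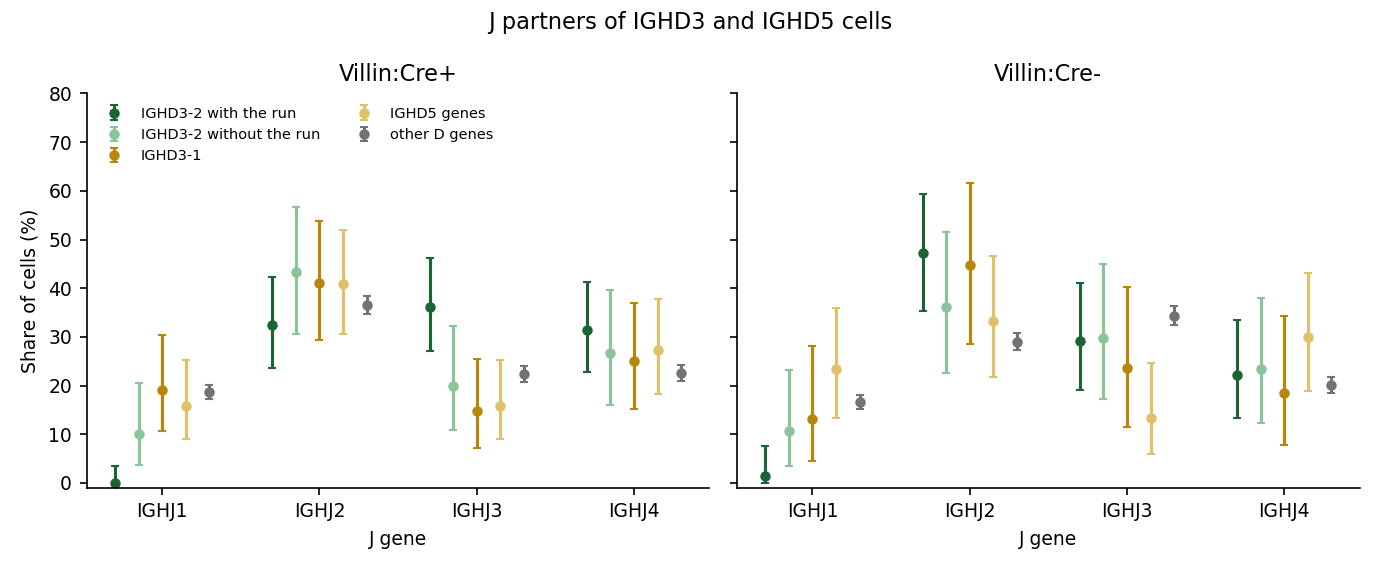
Share of cells joined to each J gene (y axis, percent; x axis, J gene) in the Cre+ library (left panel) and the Cre- library (right panel), with exact 95% intervals, for IGHD3-2 with and without the run, IGHD3-1, the IGHD5 genes and other D genes. At IGHJ1 the IGHD3-2 cells with the run stand at 0% and 1.39%, below other D genes at 18.6% and 16.5%. The grey IGHJ3 point of the Cre- panel (34.4%) includes the 417 cells of the largest lineage and is 21.3% without them.

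IGHD3-2 was found with many V genes. Its most frequent partners were IGHV1-26 with 25 cells (14 Cre+, 11 Cre-) and IGHV9-3 with 19 (13 Cre+, 6 Cre-). The IGHV9 family as a whole paired with IGHD3-2 in 18 of 165 Cre+ cells (10.9%, 6.59 to 16.7), a difference of 6.35 percentage points from other D genes (1.95 to 12.2). In the Cre- library it was 6 of 119 (5.04%), a difference of 1.29 (-1.98 to 6.95), so the excess was seen in 1 of the 2 libraries. For IGHV9-3 alone the IGHD3-2 difference in Cre+ was 4.80 (1.11 to 10.1) over all cells and 2.26 (-0.84 to 7.21) in unswitched cells. A part of the excess lies in lineages: the Cre+ library held 2 IGHV9-3 lineages of 2 IgA cells each with an IGHD3-2 call.

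Most IGHD3-2 cells were unswitched. In Cre+ 150 of 163 were IgM or IgD (92.0%, 86.7 to 95.7), and in Cre- 104 of 118 (88.1%, 80.9 to 93.4). IgA made up 8 Cre+ and 7 Cre- cells, and IgG2b 5 Cre+ and 7 Cre- cells. The run was held by 102 of 150 unswitched and 1 of 13 switched cells in Cre+, and by 63 of 104 unswitched and 8 of 14 switched cells in Cre-. The Cre+ intervals were 0.19% to 36.0% in switched and 59.9% to 75.4% in unswitched cells, and the Cre- intervals were 28.9% to 82.3% and 50.5% to 70.0%. The 13 switched Cre+ cells are not independent: 4 of them form the 2 IGHV9-3 lineages, which hold 11 and 9 bases of the stretch without the whole run. Mutation was not measured here.

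IGHD3-1 was called in 68 Cre+ and 38 Cre- cells, and these calls shared far less sequence. The commonest 8-base run in the middle of their CDR3s was in 3 of 106 cells. The commonest 6-base run, TCGGGG, was in 15 of 106 (14.2%, 8.14 to 22.3), against 45 of 6135 cells with another call or none (0.73%). By comparison the commonest 8-base run of IGHD1-1 was in 63.8% of its cells and that of IGHD2-3 in 37.0%. The middle was long enough to hold 8 bases in 76 of 106 IGHD3-1, 1827 of 1891 IGHD1-1 and 492 of 567 IGHD2-3 cells. The CDR3s of the cells with the most heavy-chain UMIs are shown, with that 6-base run in capitals where it is present.
IGHD3-1, Cre+, IGHV5-9 with IGHJ4, IgG2b, 1461 UMIs: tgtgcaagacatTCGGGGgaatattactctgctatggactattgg
IGHD3-1, Cre-, IGHV2-5 with IGHJ2, IgG1, 177 UMIs: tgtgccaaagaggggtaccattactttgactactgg
These cells are exceptions in isotype, since 65 of 68 Cre+ (95.6%) and 35 of 38 Cre- (92.1%) IGHD3-1 cells were IgM or IgD. The middle of the CDR3, after leaving out 3 residues on the V side and 5 or 7 on the J side, was rich in glycine: 27.1% of residues in Cre+ and 28.5% in Cre-, against 18.0% and 19.2% with other D genes. Residues are not independent of the D call, and these shares are a description.

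The IGHD5 calls, 88 in Cre+ and 60 in Cre-, came from genes that RefSeq lists as pseudogenes and also shared little sequence. IGHD5-7 led with 52 Cre+ and 27 Cre- cells, followed by IGHD5-5 (21 and 15), IGHD5-6 (9 and 9) and IGHD5-8 (6 and 9). The commonest 8-base run was in 4 of 36 IGHD5-5 cells, 2 of 18 IGHD5-6 cells, 2 of 79 IGHD5-7 cells and 2 of 15 IGHD5-8 cells. Only 30, 15, 49 and 9 of these cells, in the same order, had a middle long enough to hold 8 bases. The commonest 6-base run of IGHD5-5, GACTAC, was in 11 of its 36 cells (30.6%) and in 181 of 6205 cells with another call or none (2.92%). For IGHD5-7 it was GGGGGG, in 6 of 79 cells (7.59%) and in 220 of 6162 others (3.57%). No IGHD5 cell matched the IGHD3-2 stretch over more than 7 bases. As for IGHD3-1, the top cell by UMIs in each library is given, with the 6-base run of its gene in capitals where it is present.
IGHD5-5, Cre+, IGHV1-58 with IGHJ2, IgM, 41 UMIs: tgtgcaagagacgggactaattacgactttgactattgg
IGHD5-5, Cre-, IGHV9-3 with IGHJ4, IgM, 25 UMIs: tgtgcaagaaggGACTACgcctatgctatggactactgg
IGHD5-6, Cre+, IGHV5-4 with IGHJ3, IgD, 23 UMIs: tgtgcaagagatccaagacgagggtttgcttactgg
IGHD5-6, Cre-, IGHV5-6 with IGHJ2, IgM, 42 UMIs: tgtgcaagggacttatttgactactgg
IGHD5-7, Cre+, IGHV1-39 with IGHJ2, IgG2b, 241 UMIs: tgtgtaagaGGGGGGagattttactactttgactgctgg
IGHD5-7, Cre-, IGHV5-17 with IGHJ1, IgA, 48 UMIs: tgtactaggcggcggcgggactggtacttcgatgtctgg
IGHD5-8, Cre+, IGHV1-75 with IGHJ2, IgD, 20 UMIs: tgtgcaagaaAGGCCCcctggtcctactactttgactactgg
IGHD5-8, Cre-, IGHV1-9 with IGHJ1, IgA, 77 UMIs: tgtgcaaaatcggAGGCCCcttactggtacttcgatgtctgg
For IGHD3-2 the top Cre- cell, an IgA cell with 720 UMIs, holds 7 bases of the stretch.
IGHD3-2, Cre-, IGHV14-3 with IGHJ3, IgA, 720 UMIs: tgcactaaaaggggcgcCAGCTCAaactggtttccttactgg

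The unswitched share of IGHD5 cells was below that of other D genes in each library when the largest lineage was left out. In Cre+ 76 of 88 were IgM or IgD (86.4%, 77.4 to 92.8), and in Cre- 49 of 60 (81.7%, 69.6 to 90.5), against 90.8% of other D cells in Cre+ and 90.4% of 2084 in Cre- without that lineage. The differences were -4.39 (-13.4 to 2.10) and -8.74 (-20.9 to 0.18) percentage points, and -6.14 (-13.0 to -0.64) over both libraries. A lower share was not particular to IGHD5. Without the largest lineage of each library, cells with no D call were unswitched in 85.2% in Cre+ and 87.3% in Cre-. Their difference from other D genes was -4.46 (-7.90 to -1.42) over both libraries. Within the IGHD5 family, 9 of 9 Cre+ and 9 of 9 Cre- IGHD5-6 cells were unswitched. IGHD5-8 had 6 of 6 unswitched cells in Cre+ and 4 of 9 in Cre-, where 4 of the cells form 2 IgA lineages.

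Lambda light chains were more frequent with IGHD5-7. The light chain with the most UMIs was lambda in 9 of 52 IGHD5-7 cells of Cre+ (17.3%, 8.23 to 30.3), against 115 of 2607 cells with other D genes (4.41%, 3.66 to 5.27). In Cre- it was lambda in 6 of 27 (22.2%, 8.62 to 42.3), against 88 of 2455 (3.58%, 2.88 to 4.40). The differences were 12.9 (3.78 to 25.9) and 18.6 (5.01 to 38.7) percentage points, the same way in both libraries. The 15 lambda cells had 15 different CDR3s in 15 lineages and 11 IGHV genes, and 11 used IGLV1, 3 IGLV2 and 1 IGLV3. IGHD3-2 cells, in contrast, had a lambda chain in 3 of 163 Cre+ (1.84%) and 4 of 119 Cre- cells (3.36%). Cells with no D call had one in 17 of 336 in Cre+ (5.06%) and 21 of 218 in Cre- (9.63%). That Cre- share was also above other D genes, by 6.05 percentage points (2.39 to 10.8). The Cre- share of other D genes includes the largest lineage. IGHD5-7 was singled out here after the lambda shares of all 6 genes had been seen.

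The CDR3s of IGHD3-1 and IGHD5 cells were shorter than those of other D genes, and those of IGHD3-2 differed less. For IGHD3-2 the median was 14 amino acids in both libraries (quartiles 13 to 15 in Cre+), and it was 14 for other D genes (quartiles 13 to 16 in Cre+). IGHD3-1 had a median of 13 in Cre+ and 12 in Cre-, IGHD5-7 12 in both, IGHD5-5 12 and 13, IGHD5-6 13 and 12, and IGHD5-8 12 and 12. Cells with no D call had 11 in both. Among the other D genes IGHD4-1 was also short, with a median of 13 in Cre+. In Cre- the IGHD4-1 median was 11 over all cells and 13 without the largest lineage. Over the 6 genes the mean was 13.2 ± 2.25 amino acids in Cre+ and 13.2 ± 2.32 in Cre- (SD over cells), against 14.5 ± 2.41 and 14.0 ± 2.56 for other D genes. Without the largest lineage the Cre- mean of other D genes was 14.6, and the median difference there was -2 in place of -1. For IGHD3-2 the mean difference was -0.54 in Cre+, and in Cre- it was 0.012 over all cells and -0.58 without that lineage, where its median was 14 against 15.

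**Figure D4:**
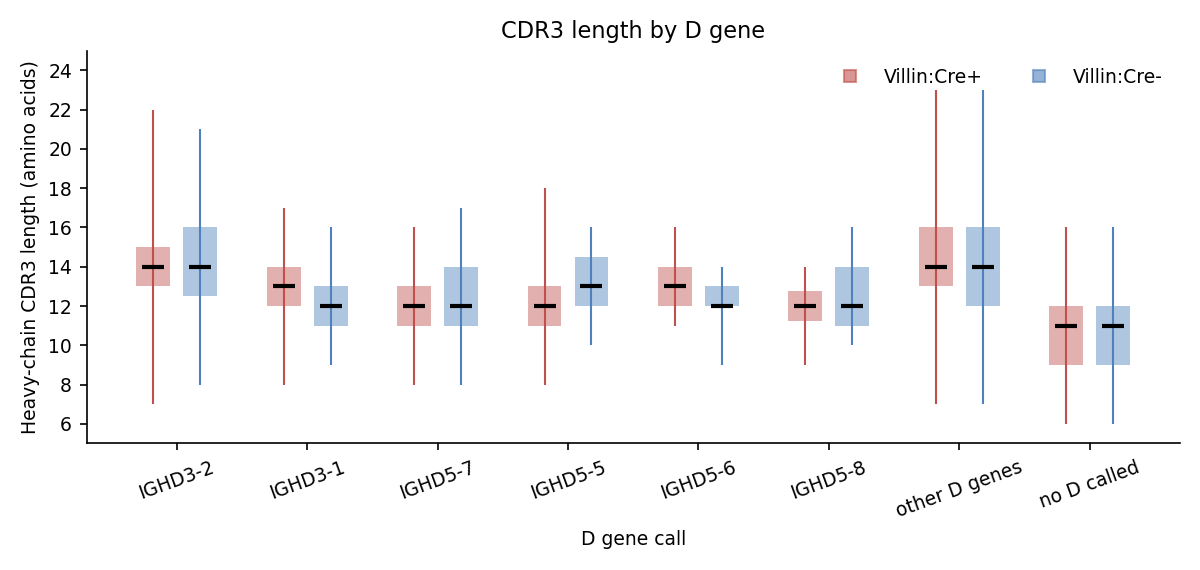
Length of the heavy-chain CDR3 (y axis, amino acids) by D gene (x axis) in the Cre+ (left) and Cre- (right) libraries. Boxes span the quartiles, black marks are medians and lines run over the whole range of cells. IGHD3-2 has its median at 14 in both libraries like other D genes, IGHD5-7 at 12, and cells with no D call at 11.

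The residues in the middle of the CDR3 differed as well, and they follow the same letters as the D call. No tyrosine was present in the middle of 248 of 321 IGHD3 and IGHD5 cells of Cre+ (77.3%, 72.3 to 81.7), against 1023 of 2632 cells with other D genes (38.9%, 37.0 to 40.8). In Cre- it was absent from 164 of 217 (75.6%, 69.3 to 81.1), against 1222 of 2508 (48.7%, 46.8 to 50.7), or 38.5% of 2091 without the largest lineage. The median middle had 4 residues in both libraries, against 6 and 5 with other D genes, so fewer residues were there to be tyrosine. Serine made up 18.4% of the middle residues of IGHD3-2 cells in Cre+ and 22.4% in Cre-, against 12.3% and 10.7%. Glutamine made up 7.46% and 6.66%, against 0.56% and 0.33%. The Ala-Gln frame gives it, and so does the Leu-Arg frame where the base before the run is matched, as in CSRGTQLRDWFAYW. Proline stood at 9.49% and 8.87% in IGHD5 cells, against 3.33% and 2.91%.

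As a group the 6 genes took 10.9% of D-called cells in Cre+ (9.77 to 12.05) and 7.96% in Cre- (6.97 to 9.04), intervals that did not overlap, with a difference of 2.91 percentage points (1.36 to 4.45). With the largest lineages left out the shares were 10.9% and 9.40% (8.24 to 10.7), intervals that overlapped, with a difference of 1.47 (-0.21 to 3.12). Gene by gene, the interval of the Cre+ share overlapped that of the Cre- share for 6 of 6. Over all 13 D genes called, 2 had intervals that did not overlap (15.4%), IGHD1-1 and IGHD4-1, and 0 (0%) did without the largest lineages. The interval of the difference lay above 0 for IGHD3-2 (1.22, 0.063 to 2.38), IGHD3-1 (0.91, 0.18 to 1.64) and IGHD5-7 (0.77, 0.14 to 1.41), and held 0 for each of these without the largest lineages.

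**Figure D5:**
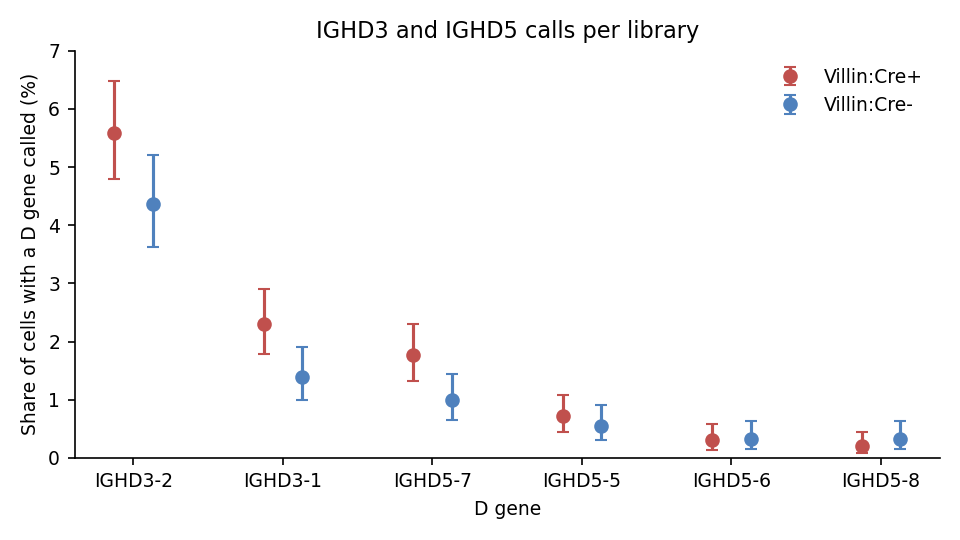
Share of D-called cells with each gene (y axis, percent; x axis, gene) in the Cre+ (left point) and Cre- (right point) libraries, with exact 95% intervals that cover counting error only. IGHD3-2 is highest in both (5.59% and 4.37%), and the 2 intervals overlap for each gene.

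The order of the genes was alike in both libraries. IGHD3-2 had 5.59% of D-called cells in Cre+ (4.79 to 6.48) and 4.37% in Cre- (3.63 to 5.20), above the other members by intervals that did not overlap. IGHD3-1 followed with 2.30% and 1.39%, then IGHD5-7 with 1.76% and 0.99%, and these neighbours' intervals overlapped in each library. IGHD5-5 (0.71% and 0.55%), IGHD5-6 (0.30% and 0.33%) and IGHD5-8 (0.20% and 0.33%) overlapped among themselves. Rarer held for 5 of the 6: with 284 cells IGHD3-2 was called more often than IGHD2-7, which had 254, and in Cre+ it had the same 165 cells as IGHD2-8.

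Over all IGHD3 and IGHD5 cells IGHJ1 was joined in 33 of 321 Cre+ cells (10.3%) and 25 of 217 Cre- cells (11.5%), differences of -8.34 (-11.8 to -4.21) and -5.03 (-9.23 to 0.19) percentage points from other D genes. The Cre- comparison here includes the largest lineage, whose IGHJ3 cells lower its IGHJ1 share and so make this Cre- difference smaller. Over all D genes with 20 or more cells, the J shares of the group were closest to those of IGHD2-3 and IGHD2-7, with 4.42% and 5.53% of cells apart by total variation distance. The IGHV1 family, the largest of the mouse V families, was used by 211 Cre+ (65.7%) and 137 Cre- cells (63.1%). IGHV9 was used by 31 Cre+ cells (9.66%), 5.10 percentage points above other D genes (1.97 to 8.94), and by 9 Cre- cells (4.15%), a difference of 0.40 (-1.98 to 4.05). The V genes with the most member cells were IGHV1-26 (18 Cre+, 14 Cre-), IGHV9-3 (20 and 7), IGHV1-80 (9 and 12), IGHV1-52 (10 and 8) and IGHV1-55 (11 and 6), and 3 more tied with IGHV1-55 at 17 cells. IgM was called in 198 of 319 Cre+ and 125 of 216 Cre- cells, IgD in 93 and 63, IgA in 13 and 18, IgG2b in 14 and 9, IgG1 in 1 and 1, and IgG3 in 0 and 0. Unswitched cells made up 91.2% in Cre+ and 87.0% in Cre-. Against other D genes that was 0.47 (-3.35 to 3.56) in Cre+ and 11.7 (6.19 to 16.2) in Cre-, where without the largest lineage it was -3.37 (-8.73 to 1.02).

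Few IGHD3 and IGHD5 cells were part of lineages, as was so for other D genes outside the largest one. A lineage joined cells of 1 library with the same V and J genes and CDR3 length at 85% or more CDR3 nucleotide identity. Lineages of 2 or more cells held 21 of 321 member cells in Cre+ (6.54%, 4.09 to 9.83) and 11 of 217 in Cre- (5.07%, 2.56 to 8.89), against 7.79% and 21.7% of other D cells, and the Cre- figure of other D cells is 6.03% (126 of 2091, 5.04 to 7.13) without the 417 cells of the largest lineage. Of the 20 lineages with a member, 15 had 2 cells and the largest had 5. The libraries held 318 and 213 distinct member CDR3 nucleotide sequences, with 1 in both.

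Cells grouped in 1 lineage did not always share a D call. The call changed within 11 of the 20 lineages, 9 in Cre+ and 2 in Cre-. Among lineages with several CDR3 nucleotide sequences it changed in 11 of 14 with a member cell and in 32 of 135 with none, but a lineage with several calls has more chances to include a member, so these counts are not comparable. In 4 of the 11 with several calls all cells also had the same light V gene. Of the 20 lineages, 11 had 1 light V gene in all cells, and among these the call changed in those same 4. One, of IGHV1-39 with IGHJ2, IgG2b and IGKV4-53, held 3 cells with the calls IGHD5-7, IGHD1-1 and none. Another, of IGHV1-58 with IGHJ2, IgM and IGKV10-96, held 3 cells called IGHD2-6, IGHD5-5 and IGHD1-1. The other two were pairs of IgA cells called IGHD3-2 and IGHD5-5: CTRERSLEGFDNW and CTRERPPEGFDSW with IGHV1-34 and IGKV4-70, and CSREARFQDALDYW and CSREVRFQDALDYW with IGHV1-76 and IGKV3-12. Cells from lineages of 3 or more cells are shown, since 1 or more calls in each such lineage is a member. Capitals mark bases of the IGHD3-2 stretch or of the gene's own 6-base run. They are set only in cells with a member call, also where other cells hold the same bases.
IGHV1-39 lineage, Cre+, IGHD5-7: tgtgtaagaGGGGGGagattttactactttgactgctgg
IGHV1-39 lineage, Cre+, IGHD1-1: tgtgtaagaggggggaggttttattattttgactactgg
IGHV1-39 lineage, Cre+, no D call: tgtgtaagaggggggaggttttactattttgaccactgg
IGHV1-58 lineage, Cre+, IGHD2-6: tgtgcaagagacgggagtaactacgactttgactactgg
IGHV1-58 lineage, Cre+, IGHD5-5: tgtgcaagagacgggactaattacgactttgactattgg
IGHV1-58 lineage, Cre+, IGHD1-1: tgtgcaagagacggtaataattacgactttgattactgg
IGHV1-12 lineage, Cre+, IGHD3-2: tgtgttagagAGGggtttgcttactgg
IGHV1-12 lineage, Cre+, no D call, IgA: tgtgtaagagaggggtttggttgctgg
IGHV1-12 lineage, Cre+, no D call, 2 cells, IgG1: tgtgcaagagaggggtttgcttactgg
IGHV3-6 lineage, Cre-, IGHD3-2, 2 cells: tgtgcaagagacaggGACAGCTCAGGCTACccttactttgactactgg
IGHV3-6 lineage, Cre-, IGHD3-2: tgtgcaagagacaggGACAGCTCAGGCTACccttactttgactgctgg
IGHV1-26 lineage, Cre-, IGHD3-1: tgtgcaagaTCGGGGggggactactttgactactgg
The IGHV3-6 lineage, 3 IgG2b cells with IGKV3-12, held 15 bases of the stretch and had 1 D call. The IGHV1-12 lineage had 4 cells and 2 light V genes, and 1 of its cells was called IGHD3-2. That cell matched the stretch over 3 bases at most, and the lineage's uncalled cells hold the same 3 bases. What the call rested on was not tested. The IGHV1-26 lineage joined 5 cells with 5 different calls (none among them) and 5 light V genes, so these cells share a similar heavy CDR3 and no light V gene.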

How the data were processed

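Heavy-chain contigs were taken from the contig tables of the 2 libraries. Per the file headers these list the gene calls, the CDR3 and the count of reads and UMIs of each contig, as deposited by the authors without normalisation. The deposited clonotype tables were used in 1 alternative. Cell Ranger (version not given in the sources used here) and GRCm38 are named in the submitters' processing notes. D calls were used as deposited. Barcodes with 2 or more heavy chains were left out, and no doublet caller was run. Isotype shares leave out cells without a constant gene call, and the light chain was the productive one with the most UMIs. Lineages used single linkage at 85% CDR3 identity. Named were all 6 genes, the J genes, V families and isotypes, the 5 V genes with most member cells, the 2 D genes of nearest J use, and CDR3s of top cells and of lineages of 3 or more. Not every CDR3 that this rule names is reported here. Members and lists were chosen with earlier results of these data known. The search for shared runs, and the settings on it, were added after seeing the data. Alternatives changed the barcode rule, UMI minimum, lineage counting, isotype and CDR3 length. Steps were tested on simulated data. Python 3.11.15, pandas 2.3.3, numpy 2.4.6, scipy 1.17.1 and matplotlib 3.10.9 were used.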

Additional observations from a re-analysis of the deposited data

Results flagged for a closer look

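Some differences between IGHD3 and IGHD5 cells and cells with other D genes had opposite signs in the 2 libraries. The values are in percentage points with their intervals, each library is 1 pool, and the difference between the libraries was not tested. For IGHJ3 it was 0.67 in Cre+ (-4.11 to 5.92) and -10.4 in Cre- (-16.2 to -3.89), and in Cre- it was 2.68 without the largest lineage, which uses IGHJ3. For IGHV5 it was -2.23 in Cre+ (-4.66 to 0.97) and 4.62 in Cre- (0.73 to 9.58). For IGHV2 it was -1.06 in Cre+ (-2.88 to 1.58) and 2.28 in Cre- (-0.60 to 6.38). For IGHV3 it was 0.27 in Cre+ (-1.94 to 3.28) and -1.001 in Cre- (-3.10 to 2.39). In Cre- the comparison for these V families includes the 417 IGHV4-1 cells of the largest lineage. They lower its share of each of these families, so the Cre- differences stand higher than without them. The values of the V families without that lineage are not given here.

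The same D genes were called in heavy chains outside the cells compared above. Nonproductive contigs held 16 such calls of 216 with a D gene in Cre+ (7.41%, 4.29 to 11.8) and 11 of 143 in Cre- (7.69%, 3.90 to 13.3). Barcodes with 2 or more productive heavy chains held 23 of 272 in Cre+ (8.46%, 5.44 to 12.4) and 16 of 155 in Cre- (10.3%, 6.02 to 16.2). A count of 0 would have allowed up to 1.39% and 2.10% of the nonproductive contigs, and up to 1.10% and 1.94% of the others.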

How the results depend on the processing

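Of 261 alternative values, 234 moved by less than their 95% interval, 20 moved by more and 7 turned sign; the cause was not tested, except that settings that drop or collapse the largest Cre- lineage remove its 417 IGHD4-1, IGHJ3, IgA cells. No paired analysis was possible because each genotype had 1 library. The Cre+ median CDR3 length difference was 0 against IGHD4 alone. In Cre- it was -2 with each lineage counted once, without the largest lineages, in unswitched cells and against IGHD1 alone, 2 against IGHD4 alone, and -0.75 as a mean. The value against IGHD4 includes the largest lineage: the Cre- IGHD4-1 median was 11 with it and 13 without it, and that of the members was 13. The IGHJ1 difference of IGHD3-2 was -18.6 in Cre+ and -15.2 in Cre- for cells with the run. For all members in Cre-, IGHJ2 was -0.26 and IGHJ3 -0.50 at CDR3s of 12 to 16 residues, and IGHJ3 was 3.25 with each lineage counted once, 2.68 without the largest lineages and 2.76 in unswitched cells. Under those 3 settings IGHV1 in Cre- was 0.73, 0.87 and 0.35, and the share without tyrosine 37.1, 37.1 and 37.2 above other D genes. IGHV3 was -3.71 in unswitched cells. The unswitched share in Cre- was -2.48 with each lineage counted once and -3.37 without the largest lineages. Lineages held 17.8% of member cells in Cre+ and 11.98% in Cre- at 80% identity, and in Cre+ 4.05% at 90% and 1.25% by deposited clonotypes. With 15 to 284 cells per gene over both libraries, intervals of shares among a gene's own cells were wide. Many differences of a few percentage points between such shares could not be told from 0.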
